A study of Mus musculus with 34 samples.

Results

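The polycystic kidney disease genes are 10 genes in which mutations cause cystic disease of kidney or liver in humans or mice: *Pkd1*, *Pkd2*, *Pkhd1*, *Ganab*, *Dnajb11*, *Prkcsh*, *Sec63*, *Dzip1l*, *Bicc1* and *Glis3*. They were chosen by name from what is known of the disease, though with earlier results of these data known. They are 10 of the 23509 genes in the count tables, and all 10 passed the filter on low counts that left 15644 genes for testing. Polyadenylated RNA of whole kidney was sequenced in 34 C57BL6 mice at postnatal day 28. *Pkd2*-KO mice, in which a Cre recombinase driven by *Pkhd1* sequence deletes floxed *Pkd2* alleles (Pkhd1/cre with Pkd2 F/F), received PBS (n = 11) or 20 mg per kg of RGLS4326 (n = 11) under the skin on postnatal days 10, 11, 12 and 19. Non-transgenic mice of the same strain were left untreated (UNT, n = 12). UNT mice therefore lacked both the deletion and the injections, and these cannot be told apart in a comparison with UNT. The Cre acts mainly in collecting duct, so cells outside its reach keep intact *Pkd2*, and the driver comes from another gene of the group. The labels spell the genotype with the letters of *Pdk2*, a pyruvate dehydrogenase kinase gene, in place of *Pkd2*.

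Polycystin-1 (*Pkd1*) and polycystin-2 (*Pkd2*) form a receptor and channel complex on the primary cilium of tubule cells, and loss of either causes the dominant form of the disease. Fibrocystin (*Pkhd1*) is the protein lost in the recessive form. Glucosidase II (*Ganab*, *Prkcsh*), the chaperone cofactor *Dnajb11* and the translocon protein *Sec63* act in the endoplasmic reticulum (ER), where polycystin-1 is folded and glycosylated, while *Dzip1l* acts at the base of the cilium, *Bicc1* binds mRNA and *Glis3* is a zinc finger transcription factor. MicroRNAs of the miR-17 family repress mRNAs that carry a match to their seed, bases 2 to 8, in the 3′UTR, and RGLS4326 is a short, chemically modified oligonucleotide that pairs with this seed.

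The mature microRNAs of the family are shown because their shared seed defines the matches searched in the members. All share the seed AAAGUGC, set in capitals (RefSeq sequences for GRCm38.p6, 5′ to 3′).
miR-17-5p: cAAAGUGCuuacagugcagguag
miR-20a-5p: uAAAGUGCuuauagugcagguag
miR-20b-5p: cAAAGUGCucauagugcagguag
miR-93-5p: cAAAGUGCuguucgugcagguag
miR-106a-5p: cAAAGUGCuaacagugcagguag
miR-106b-5p: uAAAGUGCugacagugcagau

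Of the 10 members, 5 held at least 1 match to this seed in their longest annotated 3′UTR and 5 held none. The matches searched were GCACTTTA (8mer), GCACTTT (7mer-m8) and CACTTTA (7mer-A1), each 8mer being counted once. *Pkd1* and *Pkd2* each held a single 8mer, *Bicc1* an 8mer and a 7mer-A1, *Sec63* a 7mer-m8, and *Glis3* a pair of 7mer-A1 matches and a 7mer-m8. *Pkhd1*, *Ganab*, *Dnajb11*, *Prkcsh* and *Dzip1l* held none. Among 14193 tested genes with an annotated 3′UTR, 21.2% held any match and 4.26% an 8mer. The 8mer matches and the single match of *Sec63* are printed with neighbouring bases, on the strand of the gene and with the match in capitals (GENCODE M21, GRCm38).
Pkd2 8mer, chr5:104503821-104503828 on the plus strand: tataattttctGCACTTTAatttattttac
Pkd1 8mer, chr17:24595732-24595739 on the plus strand: atggggcttctGCACTTTAaaaaggctgtg
Bicc1 8mer, chr10:70924747-70924754 on the minus strand: gaggtcttccaGCACTTTAcacggtctagt
Sec63 7mer-m8, chr10:42829891-42829897 on the plus strand: atacaaaggagGCACTTTtgtattcattt

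All members were well covered, with 406 to 33066 reads per member and library, and libraries held from 17603122 to 54981992 reads in genes. Several libraries stood apart. PBS replicate 9 lay at the far end of the second principal component of log2(CPM + 1), at 50.67 against at most 19.65 in the other mice. PBS replicates 2 and 11 held RNA of adrenal, fat and muscle markers at a summed 521.5 and 743.7 CPM, where CPM is the depth-scaled count after trimmed-mean (TMM) scaling, against 9.70 to 77.3 CPM in the other mice. Of these markers, the adrenal genes *Cyp11b1* and *Cyp11b2* were at 0 in every UNT library. RGLS4326 replicates 5, 6, 7 and 11 had 11.3 to 12.0% of reads in no gene, against 5.18 to 8.995% in PBS libraries and 9.84 to 11.3% in UNT libraries. The PBS and UNT ranges did not overlap. Fits of PBS against UNT with this share as a covariate therefore compare groups at shares they do not have in common. Such values cannot separate the share from the group. Every marker of proximal tubule, thick ascending limb, distal convoluted tubule, collecting duct and podocyte was detected in each group. Cell markers moved with the groups: from UNT to PBS the 8 proximal tubule markers fell in sum from 12040 to 17330 CPM down to 921 to 3372 CPM, the 7 principal cell markers of collecting duct went from 646 to 1035 CPM up to 1130 to 2651 CPM, the 6 fibroblast markers from 611 to 1528 CPM up to 3428 to 7115 CPM, and the 7 macrophage markers from 102 to 185 CPM up to 905 to 2906 CPM. Of the other marker lists, PBS against UNT gave 4 of 5 thick ascending limb markers, 4 of 4 distal convoluted tubule, 4 of 5 intercalated cell, 4 of 5 podocyte and 3 of 5 endothelial markers lower, with 1, 0, 1, 1 and 2 of them higher, and 4 of 5 T cell, 5 of 5 proliferation and 3 of 4 tested adrenal, fat and muscle markers higher. From PBS to RGLS4326, 7 of 8 proximal tubule markers rose, 5 of 7 principal cell and 5 of 7 macrophage markers fell, and the 6 fibroblast markers had a median log2 fold change of 0.07. Of the other lists, 4 of 5 podocyte, 4 of 5 endothelial, 3 of 5 thick ascending limb, 2 of 4 distal convoluted tubule and 1 of 5 proliferation markers were higher with treatment. Lower were 4 of 5 T cell, 3 of 4 adrenal, fat and muscle, 1 of 5 thick ascending limb and 1 of 5 intercalated cell markers. In whole kidney, fewer cells of a type and less RNA per cell cannot be told apart, and the part of these markers in the results for the members was not tested.

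The scale of the comparison also matters. Scaling to the 6 housekeeping genes of the study, 4 of which rose in PBS against UNT, moved the median log2 fold change of all genes by -0.52 in PBS against UNT, by 0.11 in RGLS4326 against PBS and by -0.41 in RGLS4326 against UNT. Total counts without a scaling factor moved it by 0.30, 0.01 and 0.30. The share of called genes that were higher was 52.5%, 45.2% and 52.5% in the 3 comparisons, 26.5%, 78.1% and 28.2% on the housekeeping scale and 68.6%, 47.4% and 72.5% with total counts. Directions below are relative to the TMM scale, and flips of the members under these scalings are given beside the gene.

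Per exon length, *Ganab* was the member with the highest level and *Glis3* that with the lowest in normal kidney. On the RPKM scale (TMM-scaled CPM per kilobase of annotated exon union), the levels in UNT were 58.3 ± 3.45 (SD, n = 12) for *Ganab*, 38.0 ± 9.26 for *Dnajb11*, 29.2 ± 2.45 for *Prkcsh*, 26.9 ± 3.38 for *Pkd2* and 20.1 ± 3.26 for *Pkhd1*. *Sec63* followed at 16.4 ± 1.98 RPKM, *Bicc1* at 10.8 ± 2.19, *Pkd1* at 6.33 ± 0.985, *Dzip1l* at 6.14 ± 0.905 and *Glis3* at 2.68 ± 1.06. For 4 neighbouring pairs (*Dnajb11* and *Prkcsh*, *Prkcsh* and *Pkd2*, *Pkhd1* and *Sec63*, *Pkd1* and *Dzip1l*) the ranges of mean ± SD overlapped, so their order is not resolved, and *Bicc1* and *Pkd1* were the one neighbouring pair whose mice did not overlap. In PBS kidneys *Bicc1* was the third at 35.1 ± 7.72 RPKM (n = 11) and *Pkd2* the seventh at 15.7 ± 3.16 RPKM, as the plot of levels per exon length shows. The range of *Bicc1* overlapped those of *Dnajb11*, *Pkhd1* and *Prkcsh*, and that of *Pkd2* overlapped *Sec63*, so these ranks are not resolved. By longest transcript they were 4 and 6. With the longest annotated transcript as length, *Pkd2* was at 52.5 RPKM in UNT and *Prkcsh* at 56.0 RPKM, both above *Dnajb11* at 48.9 RPKM.

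**Figure D1:**
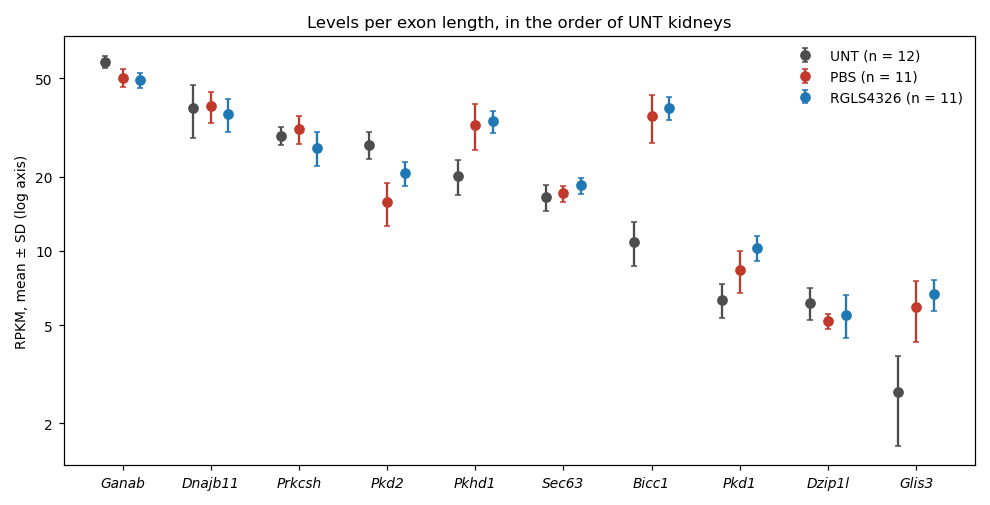
Level of each gene as RPKM (mean ± SD, logarithmic axis) in UNT (n = 12), PBS (n = 11) and RGLS4326 (n = 11) kidneys, ordered by the UNT mean. *Ganab* was highest in all 3 groups, and *Bicc1* rose from 10.8 RPKM in UNT to 35.1 RPKM in PBS.

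In the comparison of cystic with normal kidney, PBS against UNT, 7 of the 10 members passed an adjusted p of 0.05 (edgeR quasi-likelihood test, Benjamini-Hochberg adjustment over all tested genes), beside 82.1% of all tested genes. On total counts 7 members were called higher and 1 lower, and on the housekeeping scale 2 higher and 6 lower. On the TMM scale, higher in PBS were 4 members (*Pkd1*, *Pkhd1*, *Bicc1* and *Glis3*), beside 43.1% of tested genes called higher, and lower were 3 (*Pkd2*, *Ganab* and *Dzip1l*), beside 39.0% called lower. The groups did not overlap for 1 member, *Pkd2*, against 42.5% of tested genes. The median log2 fold change of the members was 0.08, against 0.04 over all tested genes. In RGLS4326 against PBS, 3 members passed, *Pkd1* and *Pkd2* higher and *Prkcsh* lower, beside 33.8% of tested genes called, with 15.3% of tested genes higher and 18.5% lower. No member had groups without overlap in this comparison, against 0.0639% of tested genes (10 of 15644). The members' median log2 fold change was 0.10, against 0.00 over all tested genes, and on the housekeeping scale 3 members were called higher and 0 lower. RGLS4326 against UNT called 8 members, 5 higher and 3 lower (6 and 0 on total counts, 4 and 6 on the housekeeping scale), beside 77.7% of tested genes called, 40.8% higher and 36.9% lower, and *Pkd1*, *Pkhd1* and *Bicc1* had groups without overlap, against 36.7% of tested genes. Against these backgrounds, the counts of members called say nothing particular about the group. The 3 comparisons share their groups, so their values are given side by side and not as separate evidence.

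**Figure D2:**
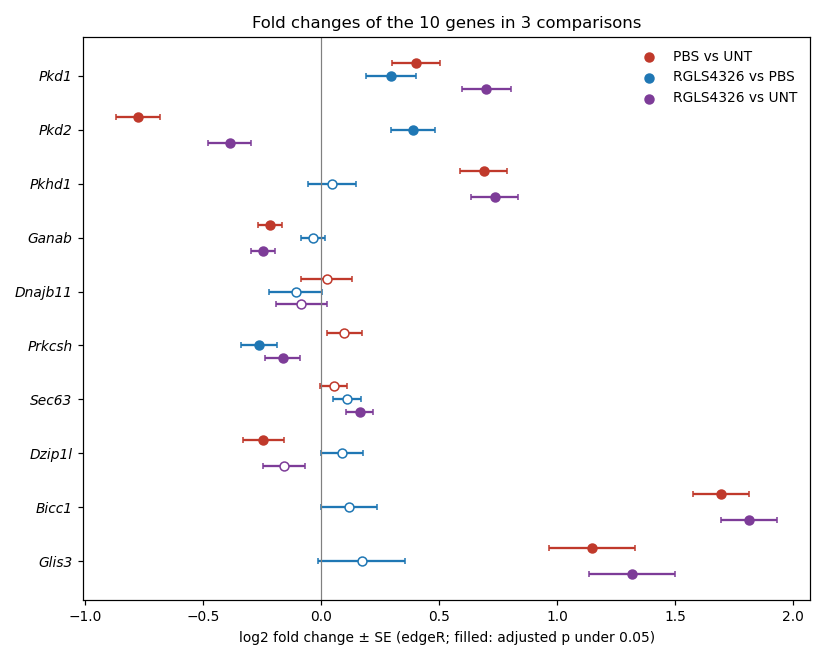
Log2 fold change (point) and SE (bar) from edgeR for each gene in PBS vs UNT, RGLS4326 vs PBS and RGLS4326 vs UNT, with filled points where the adjusted p was under 0.05. *Bicc1* and *Glis3* stood farthest from 0 in both comparisons with UNT on the TMM scale, and *Pkd1*, *Pkd2* and *Prkcsh* carried the filled points of RGLS4326 vs PBS.

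*Pkd2* (ENSMUSG00000034462, chr5:104459450-104505819, plus strand, GRCm38), the targeted gene, encodes the channel subunit polycystin-2. Its level was 219.6, 274 and 338 CPM (lowest, median and highest) in UNT, 98.03, 165 and 215 CPM in PBS and 170.03, 210 and 237 CPM in RGLS4326. All PBS mice lay below all UNT mice. The log2 fold change of PBS against UNT was -0.78 (SE 0.09, 0.584-fold, adjusted p = 1.4e-09), and -0.82, -0.49 and -1.10 within library sets 1, 2 and 3, which are the runs of numbers in the table names and not a batch that the labels state. It was -1.28 on the housekeeping scale, -0.48 on total counts and -0.50 with the fraction of reads outside genes entered as a covariate, all called. Gene counts cover all exons, so RNA that lacks only the floxed part is still counted.

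RGLS4326-treated kidneys held more *Pkd2* RNA than PBS-treated kidneys and less than UNT kidneys. All 11 RGLS4326 mice were above the PBS mean, 5 of 11 were above every PBS mouse, and 6 of 11 were below every UNT mouse. The log2 fold change was 0.39 (SE 0.09, 1.31-fold, adjusted p = 0.00439) against PBS and -0.39 (SE 0.09, adjusted p = 0.000267) against UNT. The latter became -0.07 with total counts and -0.15 in library set 2 alone, neither called, -0.79 on the housekeeping scale and -0.25 with the covariate. Without PBS replicate 9 the treatment difference was 0.35 (adjusted p = 0.00711), and within library sets 1, 2 and 3 it was 0.35, 0.34 and 0.56 (adjusted p = 0.0938, 0.0938 and 0.262). It was no longer called without PBS replicates 2, 9 and 11 (0.30, adjusted p = 0.0553), without the 4 RGLS4326 libraries high in reads outside genes (0.33, adjusted p = 0.0754), or with that share as a covariate (0.25, adjusted p = 0.135).

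*Pdk2*, the gene that the labels name, fell as well, from 217 to 365 CPM in UNT to 86.8 to 152 CPM in PBS (log2 fold change -1.17, SE 0.11, adjusted p = 5.32e-12). It did not differ detectably between RGLS4326 and PBS (-0.03, SE 0.11, adjusted p = 0.824), where it was 0.06 on the housekeeping scale. The library sets differed in sign, at 0.46, -0.43 and -0.14 in sets 1, 2 and 3 alone (edgeR adjusted p = 0.0752, 0.0451 and 0.671). Both spellings thus name a gene with less RNA in the cystic kidneys, so the levels do not tell which one a label meant. The study's own description of the mice names *Pkd2*.

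*Pkd1* (ENSMUSG00000032855, chr17:24549834-24596508, plus strand), which encodes the receptor-like partner polycystin-1, was higher in cystic than in normal kidney on the TMM scale, though at -0.12 and not called on the housekeeping scale, and higher again with treatment. Its level was 72.3, 115 and 129 CPM in UNT, 78.1, 150.2 and 171 CPM in PBS and 132, 184 and 205 CPM in RGLS4326 (lowest, median and highest). The 9 PBS mice other than replicates 9 and 10 were above every UNT mouse, and 9 of 11 RGLS4326 mice were above every PBS mouse. RGLS4326 replicates 5, 6, 7 and 11, the treated libraries with most reads outside genes, were among the 5 highest. UNT replicates 4 and 10, at 80.7 and 72.3 CPM, were the low end of the normal kidneys.

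For *Pkd1*, the log2 fold change of PBS against UNT was 0.40 (SE 0.10, 1.32-fold, adjusted p = 0.000556), but on the housekeeping scale it was -0.12 (adjusted p = 0.385), while it was 0.69 on total counts and 0.65 with the covariate. It was not called in library set 3 alone (0.28, adjusted p = 0.244). RGLS4326 against PBS gave 0.30 (SE 0.10, 1.23-fold, adjusted p = 0.0286) and RGLS4326 against UNT 0.70 (SE 0.10, 1.63-fold, adjusted p = 1.52e-07), with all 11 treated mice above all UNT mice, but 0.28 (adjusted p = 0.0493) on the housekeeping scale. The treatment difference was 0.25 (adjusted p = 0.0429) without PBS replicate 9 and 0.26 (adjusted p = 0.0532) without PBS replicate 10, and 0.06, 0.30 and 0.56 within library sets 1, 2 and 3 (adjusted p = 0.854, 0.022 and 0.262). It was not called without PBS replicates 2, 9 and 11 (0.28, adjusted p = 0.0828), without the 4 RGLS4326 libraries named above (0.24, adjusted p = 0.207) or with the fraction of reads outside genes entered as a covariate (0.17, adjusted p = 0.355).

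*Pkd1* shares 693 exon bases, 3.98% of its exon union, with *Tsc2* on the opposite strand, and since the strand setting of the counting was not given in the sources used here, some reads could belong to either. *Tsc2* encodes tuberin and is itself a cystic kidney gene. Its change on the log2 scale was -0.11 (SE 0.05, adjusted p = 0.0478) in PBS against UNT, which was 0.18 on total counts and not called with upper quartile scaling (adjusted p = 0.0704), library set as a covariate (0.0542), a replicate block (0.108), only the 2 groups in the fit (0.0667), or library sets 1 and 3 alone (0.287 and 0.46). In the treatment comparison it was -0.05 (SE 0.05, adjusted p = 0.436), which was 0.05 on the housekeeping scale.

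The ratio of *Pkd1* to *Pkd2* reads within a library does not depend on any scaling factor. It was 0.400 in UNT (log2 ratio -1.32 ± 0.367 SD, from -2.22 to -0.93), 0.907 in PBS (-0.14 ± 0.225, from -0.41 to 0.28) and 0.853 in RGLS4326 (-0.23 ± 0.178, from -0.46 to 0.02). Every *Pkd2*-KO mouse thus had a higher ratio than every UNT mouse, while the treated and PBS mice overlapped over most of their range. Without PBS replicate 9 the PBS mean was -0.12.

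*Pkhd1* (ENSMUSG00000043760, chr1:20057779-20618064, minus strand) encodes fibrocystin, a large ciliary membrane protein of tubule and bile duct epithelium. The level was 206, 280.2 and 358 CPM in UNT, 295, 474 and 643 CPM in PBS, and 369, 481 and 562 CPM in RGLS4326. Replicates 9 and 10 were the PBS mice that reached into the UNT range, and all RGLS4326 mice were above it. PBS against UNT gave 0.69 (SE 0.10, 1.61-fold, adjusted p = 1.03e-07), which was no longer called on the housekeeping scale (0.18) or in library set 3 alone (0.44, adjusted p = 0.098), and RGLS4326 against UNT gave 0.74 (SE 0.10, adjusted p = 3.26e-08), which was 0.32 on the housekeeping scale and not called in library set 3 alone (0.51, adjusted p = 0.0644). RGLS4326 and PBS differed by 0.05 (SE 0.10, adjusted p = 0.733).

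**Figure D3:**
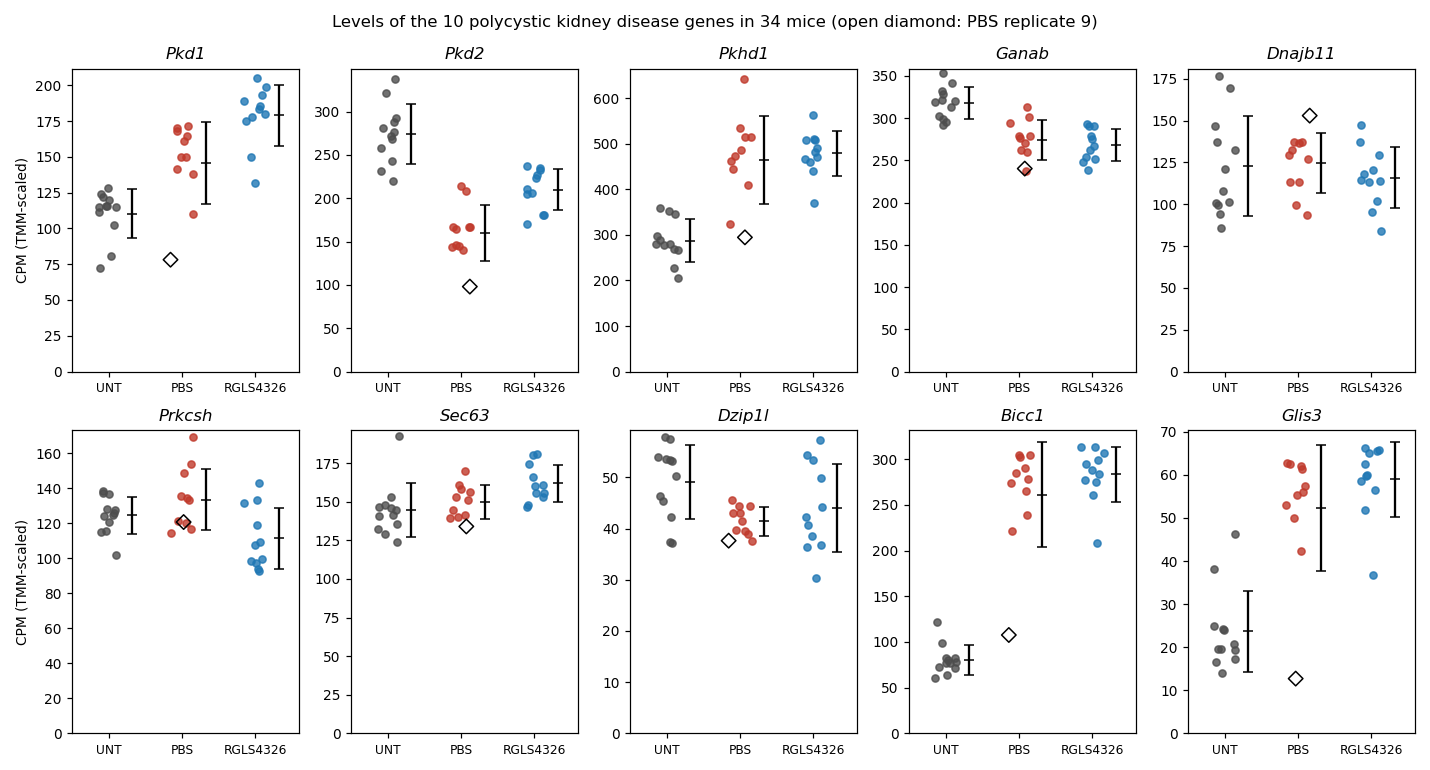
TMM-scaled CPM of each gene in every mouse of the UNT (n = 12), PBS (n = 11) and RGLS4326 (n = 11) groups, with the group mean ± SD beside the points, axes from 0 and PBS replicate 9 as an open diamond. PBS replicate 9 was the lowest PBS mouse for *Pkd1*, *Pkd2*, *Pkhd1*, *Sec63*, *Bicc1* and *Glis3* and the highest for *Dnajb11*.

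The 4 ER members had log2 fold changes between -0.26 and 0.16 over the 3 comparisons. *Ganab* (ENSMUSG00000071650, chr19:8898071-8916672, plus strand), the catalytic subunit of glucosidase II that trims glucose from new glycoproteins, had 292, 319 and 353 CPM in UNT, with 238, 277 and 313 CPM in PBS and 239, 267 and 293 CPM in RGLS4326. It fell in PBS against UNT by 0.21 on the log2 scale (SE 0.05, adjusted p = 0.000228), with 8 of 11 PBS mice below every UNT mouse, but it was 0.08 on total counts (adjusted p = 0.0886), -0.73 on the housekeeping scale and not called in library set 2 alone (-0.15, adjusted p = 0.0687). It was -0.33 with the fraction of reads outside genes entered as a covariate and -0.34 in library set 3 alone, both called. RGLS4326 and PBS overlapped (-0.03, SE 0.05, adjusted p = 0.634, and 0.08 on the housekeeping scale). RGLS4326 against UNT was -0.25 (SE 0.05, adjusted p = 4.08e-05), with 10 of 11 treated mice below every UNT mouse, and was 0.06 on total counts, -0.66 on the housekeeping scale and not called in library set 3 alone (-0.30, adjusted p = 0.0503).

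*Prkcsh* (ENSMUSG00000003402, chr9:22002806-22014222, plus strand), the regulatory subunit of the same enzyme, was the member called lower with treatment. The level was 102, 125 and 138 CPM in UNT, 114, 133 and 169 CPM in PBS and 92.8, 108 and 143 CPM in RGLS4326, with 7 of 11 treated mice below every PBS mouse. The 4 lowest, at 92.8 to 98.4 CPM, were replicates 5, 6, 7 and 11, the treated libraries with most reads outside genes, and the part of that share in the result was not tested beyond the fits given here. It differed from UNT by 0.10 in PBS (SE 0.07, adjusted p = 0.218), a value that was -0.42 on the housekeeping scale and 0.39 on total counts, both called, and -0.22 (adjusted p = 0.0187) with the fraction of reads outside genes entered as a covariate. RGLS4326 against PBS gave -0.26 (SE 0.08, 0.835-fold, adjusted p = 0.0117), -0.20, -0.49 and -0.17 within library sets 1, 2 and 3 (adjusted p = 0.229, 0.0118 and 0.428), and -0.26 (adjusted p = 0.0149) without PBS replicate 9. The call was lost on the housekeeping scale (-0.16), without PBS replicates 2, 9 and 11 (-0.26, adjusted p = 0.0564), without the 4 RGLS4326 libraries high in reads outside genes (-0.15, adjusted p = 0.229) and with that share as a covariate (-0.11, adjusted p = 0.32). RGLS4326 against UNT was -0.16 (SE 0.07, adjusted p = 0.0474), 0.13 on total counts, -0.58 on the housekeeping scale and -0.33 with the covariate. It was -0.05 (adjusted p = 0.59) without the 4 treated libraries. Within library sets 1, 2 and 3 it was -0.10, -0.40 and -0.12, of which that of set 2 was called. The difference was not called in 18 of the 34 fits that left out a mouse.

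Within libraries, the ratio of *Ganab* to *Prkcsh* reads, catalytic to regulatory subunit, was 2.55 in UNT (log2 ratio 1.35 ± 0.172 SD), 2.06 in PBS (1.04 ± 0.165) and 2.42 in RGLS4326 (1.28 ± 0.168). The log2 ratios ran from 1.10 to 1.79 in UNT, 0.83 to 1.42 in PBS and 1.03 to 1.54 in RGLS4326, so all groups overlapped.

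*Dnajb11* (ENSMUSG00000004460, chr16:22857845-22879634, plus strand), a cofactor of the chaperone BiP, was not called in the 3 comparisons over all mice on the TMM scale. It had 85.5, 115 and 177 CPM in UNT kidneys, 93.5, 130 and 153 CPM in PBS and 84.3, 115 and 147 CPM in RGLS4326. The log2 fold changes were 0.02 (SE 0.11) for PBS against UNT, -0.11 (SE 0.11) for RGLS4326 against PBS and -0.08 (SE 0.11) for RGLS4326 against UNT, with adjusted p of 0.845, 0.457 and 0.488. Changes of that size are within the spread between mice, whose widest group was UNT with an SD of 30.0 CPM. The first of them was -0.49 on the housekeeping scale and 0.32 on total counts, and the last -0.48 and 0.23, all called, while the second turned to 0.0075 on the housekeeping scale. In library set 2 alone the first was 0.29 (adjusted p = 0.0268) and the second -0.38 (adjusted p = 0.0317), both called.

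*Sec63* (ENSMUSG00000019802, chr10:42761496-42832514, plus strand), a partner of the Sec61 channel in protein import, had 124, 143 and 193 CPM in UNT kidneys, 134, 151 and 170.1 CPM in PBS and 146, 160.0 and 181 CPM in RGLS4326. UNT replicate 10 held the highest value of all mice. PBS against UNT gave 0.05 (SE 0.06, adjusted p = 0.385), called at -0.46 on the housekeeping scale and at 0.35 on total counts, and RGLS4326 against PBS 0.11 (SE 0.06, adjusted p = 0.131), which was called at 0.21 (adjusted p = 0.0196) on the housekeeping scale. In library set 2 alone PBS against UNT was called at 0.19 (adjusted p = 0.0398). Treated mice were above the UNT mean in all 11 cases (log2 fold change 0.16, SE 0.06, adjusted p = 0.00931), but this difference was -0.25 on the housekeeping scale, 0.47 on total counts and not called with only those 2 groups in the fit (0.13, adjusted p = 0.0582) or in library set 3 alone (0.05, adjusted p = 0.779). *Sec63* shares 173 exon bases (1.97%) with a non-coding gene on the opposite strand.

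*Dzip1l* (ENSMUSG00000037784, chr9:99629496-99669256, plus strand), a protein of the ciliary base whose loss causes recessive disease, had 37.2, 51.8 and 57.8 CPM in UNT kidneys, 37.6, 41.5 and 45.5 CPM in PBS and 30.4, 42.2 and 57.2 CPM in RGLS4326. All 11 PBS mice were below the UNT mean and none below the lowest UNT mouse. PBS against UNT was -0.24 (SE 0.09, adjusted p = 0.0106), which was -0.76 on the housekeeping scale and turned to 0.05 on total counts and 0.12 with the fraction of reads outside genes entered as a covariate. Within library sets 1, 2 and 3 it was -0.37, -0.27 and -0.16, of which the last pair were not called (adjusted p = 0.0545 and 0.361). The treated mice spread more widely, and the 4 highest of them, at 49.9 to 57.2 CPM, were replicates 5, 6, 7 and 11, the treated libraries with the largest share of reads in no gene. RGLS4326 against PBS was 0.09 (SE 0.09, adjusted p = 0.446), -0.10 without those 4 libraries and -0.12 with the covariate. In library sets 1, 2 and 3 alone it was -0.13, 0.31 and 0.15, none called (edgeR adjusted p = 0.516, 0.0892 and 0.583). RGLS4326 against UNT was -0.16 (SE 0.09, adjusted p = 0.1), 0.15 on total counts, and -0.35 (adjusted p = 0.000329) without them. It was also called on the housekeeping scale (-0.55), in library set 1 alone (-0.50), with RLE scaling (-0.19) and with a replicate block (-0.20), but was 0.0041 with the covariate.

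*Bicc1* (ENSMUSG00000014329, chr10:70922832-71159700, minus strand) had the largest log2 fold change between cystic and normal kidney of the 10 members on the TMM scale, whereas on the housekeeping scale that of *Pkd2* was larger, at -1.28. It encodes an RNA-binding protein that is known to act on *Pkd2* mRNA. The level was 60.9, 77.5 and 122 CPM in UNT, 108, 278 and 305 CPM in PBS and 208, 288 and 313 CPM in RGLS4326. Apart from PBS replicate 9, at 108 CPM, every *Pkd2*-KO mouse was above every UNT mouse, the highest of which were replicates 12 and 11 at 122 and 99.4 CPM. The log2 fold change was 1.70 (SE 0.12, 3.24-fold, adjusted p = 1.96e-15) for PBS against UNT and 1.81 (SE 0.12, 3.51-fold, adjusted p = 4.52e-16) for RGLS4326 against UNT. RGLS4326 against PBS was 0.12 (SE 0.12, adjusted p = 0.439), and 0.05 (SE 0.09) without PBS replicate 9. The PBS against UNT value was 1.17 on the housekeeping scale and 1.99 on total counts, and 1.90, 1.81 and 1.32 within library sets 1, 2 and 3, all called. *Bicc1* shares 349 exon bases (4.69%) with an antisense gene.

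*Glis3* (ENSMUSG00000052942, chr19:28258851-28680077, minus strand), whose loss causes cystic kidneys with neonatal diabetes and hypothyroidism, had 13.97, 20.1 and 46.2 CPM in UNT kidneys, 12.7, 55.9 and 62.8 CPM in PBS and 36.7, 60.0 and 66.3 CPM in RGLS4326. PBS replicate 9 was below every UNT mouse, whereas 9 of the other 10 PBS mice were above every UNT mouse. UNT replicates 11 and 12, at 38.2 and 46.2 CPM, stood above the other normal kidneys, as they did for *Bicc1*. PBS against UNT was 1.15 (SE 0.18, 2.21-fold, adjusted p = 5.35e-07), 1.22 (SE 0.14) without PBS replicate 9, 0.62 (adjusted p = 0.00546) on the housekeeping scale, and 1.38, 1.40 and 0.62 within library sets 1, 2 and 3, of which the last, the set with PBS replicate 9 and UNT replicates 11 and 12, was not called (adjusted p = 0.215). RGLS4326 against PBS was 0.17 (SE 0.18, adjusted p = 0.468), and 0.08 (SE 0.14) without PBS replicate 9. RGLS4326 against UNT was 1.32 (SE 0.18, 2.50-fold, adjusted p = 4.52e-08), which was 0.87 on the housekeeping scale and not called in library set 3 alone (0.92, adjusted p = 0.082).

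PBS replicate 9, low for *Bicc1*, *Glis3*, *Pkd1* and *Pkd2*, had the highest macrophage marker sum of all mice, at 2906 CPM, and a principal cell marker sum of 2620 CPM near the top of the PBS range. Its proximal tubule marker sum was 1584 CPM, below the PBS median of 2027 CPM. Leaving it out changed no call among the 10 members in any of the 3 comparisons. With treatment it moved *Pkhd1* from 0.05 to 0.0077 and *Dnajb11* from -0.11 to -0.06.

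The treatment response was then set against the seed matches printed above. *Pkd2*, *Pkd1*, *Glis3*, *Bicc1* and *Sec63*, the members with a match, had log2 fold changes of 0.39, 0.30, 0.17, 0.12 and 0.11 in RGLS4326 against PBS, all above 0, of which those of *Pkd2* and *Pkd1* were called. *Dzip1l*, *Pkhd1*, *Ganab*, *Dnajb11* and *Prkcsh*, the members without a match, were at 0.09, 0.05, -0.03, -0.11 and -0.26. Over all tested genes with an annotated 3′UTR the median was 0.14 for 604 genes with an 8mer, 0.09 for 3010 genes with any match and -0.03 for 11183 genes without one. Without PBS replicate 9 *Glis3* was at 0.08 and *Bicc1* at 0.05. *Glis3* reversed to -0.07 in library set 2. No test was made over the members, which are few and were chosen with results of these data known.

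**Figure D4:**
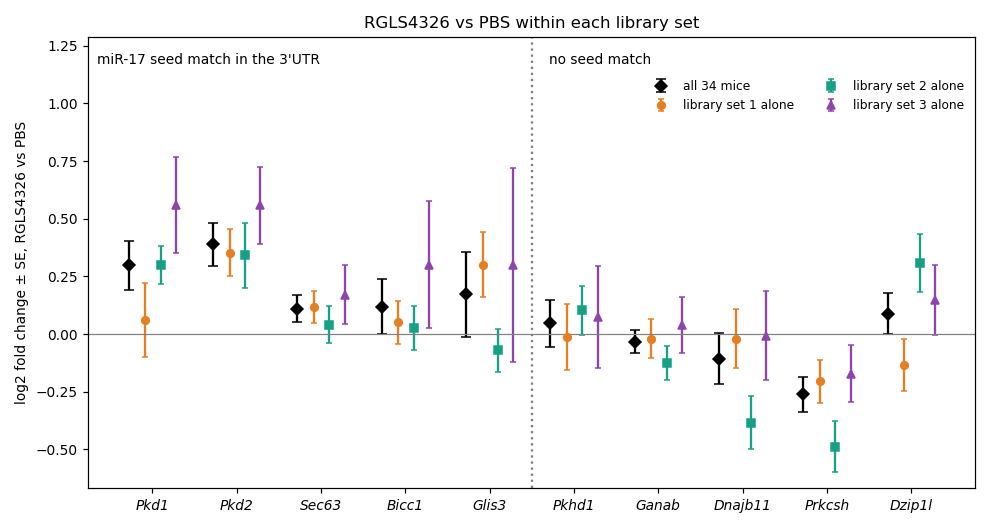
Log2 fold change (point) and SE (bar) of RGLS4326 vs PBS for each gene over all 34 mice and in each library set alone, with the 5 genes that hold a miR-17 seed match left of the dotted line. *Pkd2* lay between 0.34 and 0.56 in all 3 sets, *Pkd1* between 0.06 and 0.56, and *Prkcsh* below 0 in each.

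Of the ER partners of *Ganab*, *Prkcsh*, *Dnajb11* and *Sec63* (22 genes of glucose trimming, chaperoning, protein import, lipid-linked glycan assembly and ER quality control), 10 rose, 4 fell and 8 were not called in PBS against UNT, with a median log2 fold change of 0.12. Over all tested genes 82.1% were called, 43.1% higher and 39.0% lower, with a median of 0.04. That split depended on the scale, with 1 higher and 14 lower on the housekeeping scale and 16 higher and 1 lower on total counts. *Sec61a1*, the pore of the import channel, rose by 0.76 (SE 0.06, adjusted p = 8.5e-14), from 150 ± 9.08 CPM to 255 ± 23.1 CPM, with *Xbp1*, a factor of the unfolded protein response, at 0.70 (SE 0.12) and *Alg9*, a mannosyltransferase, at 0.61 (SE 0.07). *Sec62*, which works with *Sec63* at that channel, fell by 0.86 (SE 0.07, adjusted p = 3.08e-14), from 357 ± 50.8 CPM to 196 ± 19.0 CPM. *Syvn1*, an ER ubiquitin ligase, and *Alg6*, a glucosyltransferase, fell by 0.29 and 0.25, but were at 0.0009 and 0.05 on total counts. In RGLS4326 against PBS, 2 of the 22 rose, 5 fell and 15 were not called (median -0.04), beside 33.8% of all tested genes called, against 3 higher and 0 lower on the housekeeping scale, with *Uggt2*, a paralog of the folding sensor *Uggt1*, at 0.46 (SE 0.12) and *Alg6* at 0.29 (SE 0.09) above PBS. *Sec61g*, *Mogs* and *Sec61b* were lower by 0.29, 0.25 and 0.23 on the TMM scale (SE 0.11, 0.08 and 0.09). *Mogs*, glucosidase I, acts one step before *Ganab* and *Prkcsh*. None of the 22 was called in this comparison without PBS replicates 2, 9 and 11, nor without RGLS4326 replicates 5, 6, 7 and 11, nor with the covariate, where 4, 2 and 0 of them had an unadjusted p under 0.05 in edgeR, while DESeq2 called 8 over all mice.

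The relatives of the polycystins were scarce in kidney. Of 6 listed genes 5 were found in the count tables, and 3 of these passed the filter on low counts. They could pass it through the group in which they were high, so their levels are given as a description only. *Pkdrej*, a testis polycystin, averaged 0.152 ± 0.120 CPM in UNT, 0.502 ± 0.148 in PBS and 0.526 ± 0.181 in RGLS4326. *Pkd1l2* averaged 0.0942 ± 0.0429, 0.296 ± 0.119 and 0.297 ± 0.121 CPM in the same order. The level of *Pkd2l2* was 1.19 ± 0.443, 0.211 ± 0.113 and 0.277 ± 0.193 CPM. Because of that filter, the order of the groups for these genes is not read as a result.

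Among 15 other genes of cystic and nephronophthisis kidney disease, 5 rose, 9 fell and 1 was not called in PBS against UNT, with a median of -0.18, beside 82.1% of all tested genes called, 43.1% higher and 39.0% lower. The counts were 1 higher and 11 lower on the housekeeping scale and 7 higher and 3 lower on total counts. *Umod*, the uromodulin of the thick ascending limb, fell by 0.79 (SE 0.11, adjusted p = 3.19e-08), from 5018 ± 780 to 2904 ± 638 CPM, *Tsc1*, the partner of *Tsc2*, by 0.53 (SE 0.09) and *Ift88*, an intraflagellar transport gene needed to build cilia, by 0.44 (SE 0.06). *Glis2*, a relative of *Glis3* mutated in nephronophthisis, rose by 0.69 (SE 0.07, adjusted p = 5.59e-11), from 217.0 ± 28.3 to 349 ± 27.9 CPM, with *Nphp4* at 0.52 (SE 0.08) and *Lrp5*, a Wnt co-receptor, at 0.44 (SE 0.10), of which the last 2 were at -0.0015 and -0.09 on the housekeeping scale. With treatment against PBS, 3 rose, 2 fell and 10 were not called (median -0.05), beside 33.8% of all tested genes called, against 4 higher and 1 lower on the housekeeping scale. *Umod*, *Tmem67* and *Ift88* rose by 0.31, 0.25 and 0.22 (SE 0.11, 0.07 and 0.06), while *Glis2* fell by 0.32 (SE 0.07) and *Cys1*, which encodes cystin of the ciliary membrane, by 0.31 (SE 0.09). *Glis2* and *Glis3* thus were both higher in PBS than in UNT, and of the pair *Glis2* was lower with treatment. With the same libraries left out or the covariate, 0 of the 15 were called with treatment, where 4, 4 and 3 had an unadjusted p under 0.05 in edgeR, while DESeq2 called 5 over all mice.

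The 7 genes tied to *Bicc1*, *Dzip1l* and *Glis3* gave 1 higher, 3 lower and 3 not called in PBS against UNT (median 0.02), beside 82.1% of all tested genes called, and 7 lower on the housekeeping scale or 4 higher and 2 lower on total counts. *Adcy6*, an adenylyl cyclase whose mRNA *Bicc1* is known to repress, fell by 0.58 (SE 0.07, adjusted p = 4.81e-10), from 310.4 ± 31.4 to 207.0 ± 11.1 CPM, and *Anks3*, which binds Bicc1 protein, by 0.36 (SE 0.05). *Dzip1*, the paralog of *Dzip1l*, fell by 0.56 (SE 0.09), and *Cby1*, a binding partner at the ciliary base, rose by 0.30 (SE 0.09), which was -0.23 on the housekeeping scale. With treatment against PBS, *Dzip1* rose by 0.28 (SE 0.09), *Wwtr1*, a coactivator of Glis3, rose by 0.20 (SE 0.07), *Cby1* fell by 0.28 (SE 0.09), and 4 were not called (median 0.05), beside 33.8% of all tested genes called, against 3 higher and 0 lower on the housekeeping scale. None of the 7 was called with treatment under those 3 settings, where 4, 4 and 2 had an unadjusted p under 0.05 in edgeR and DESeq2 called 3 over all mice.

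**Figure D5:**
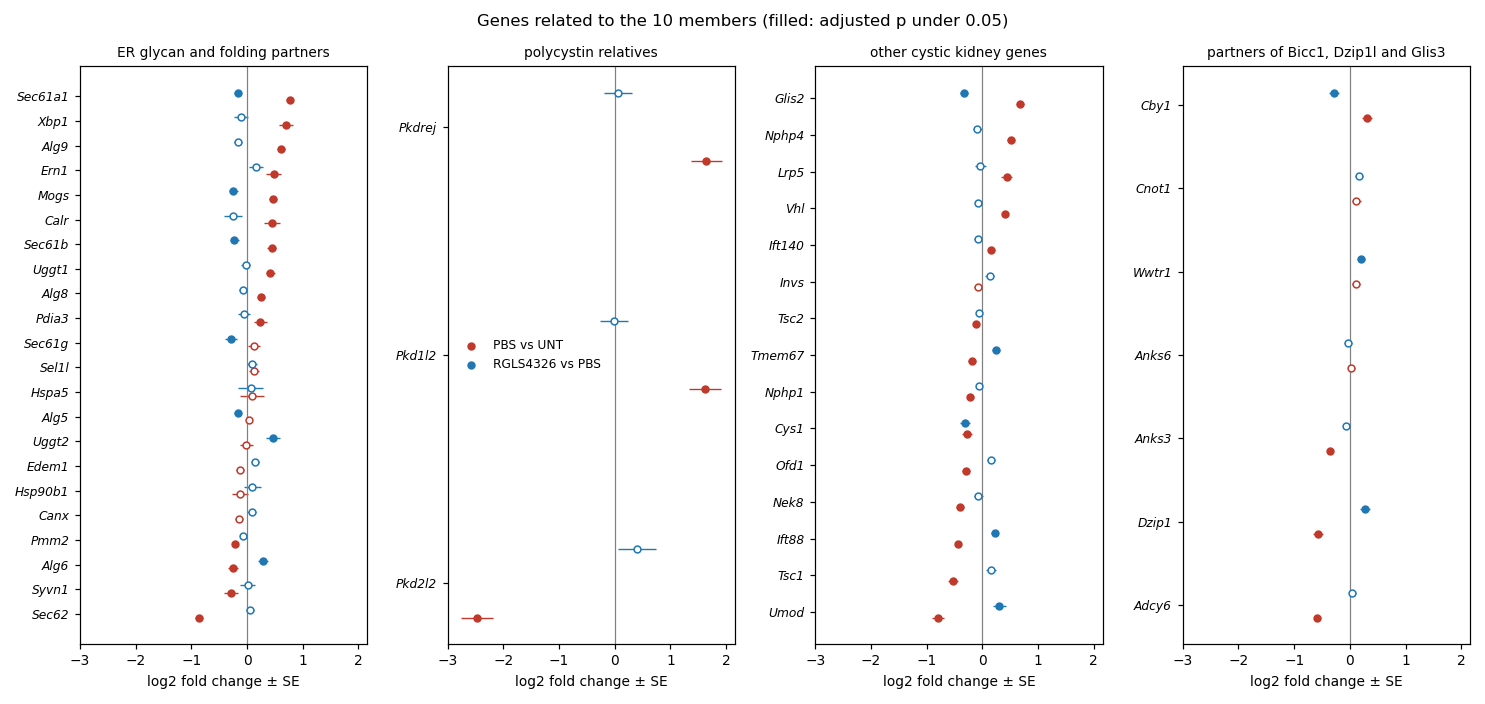
Log2 fold change (point) and SE (bar) of the tested genes of 4 related lists in PBS vs UNT and RGLS4326 vs PBS, with filled points where the adjusted p was under 0.05 and genes ordered by PBS vs UNT. *Sec62* and *Sec61a1* marked the ends of the ER list at -0.86 and 0.76, and *Umod* moved from -0.79 in PBS vs UNT to 0.31 in RGLS4326 vs PBS. The polycystin relatives, at very low counts, are drawn as a description.

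The genes that varied most like each member from mouse to mouse were then listed, as a description over 34 mice of log2(CPM + 1) after the group means were subtracted. Within a mouse all genes share 1 library and 1 mix of cells, so these values say nothing of common control. *Bicc1* and *Glis3* were themselves close, with Pearson's r of 0.934, and 0.853 without PBS replicate 9. Nearest to *Bicc1* were *Shroom4* (r = 0.949), *Glis3* and *Garem* (0.932), and nearest to *Glis3* were *Shroom4* (0.964), *Hipk2* (0.955) and *Trim56* (0.95). *Dnajb11* followed *Slc35b1*, *Pdia3* and *Hspa5*, genes of the ER, at r of 0.939, 0.937 and 0.935, and *Ganab* followed *Uggt1* (0.863), *Hdlbp* (0.853) and *Smc1a* (0.842). For *Prkcsh* the nearest were *Wdr46* (0.812), *Mybbp1a* (0.796) and *Ptbp1* (0.787), and r between *Ganab* and *Prkcsh* was 0.39.

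*Pkd1* was nearest to *Tnrc6c* (r = 0.924), a component of the microRNA silencing complex, *Notch1* (0.914) and *Dot1l* (0.903), and *Pkd2* to *Ireb2* (0.908), *Pum2* (0.899) and *Hiatl1* (0.894). *Pkhd1* was nearest to *Pclo* (0.816), *Gfpt1* (0.792) and *Bod1l* (0.79), *Sec63* to *Rab10* (0.878), *Twf1* (0.852) and *Actr2* (0.846), and *Dzip1l* to *Cdan1* (0.854), *Tnfrsf25* (0.829) and *Zfp276* (0.826). Without PBS replicate 9 the r of *Pkd1* and *Pkd2* with each other went from 0.398 to 0.0809, and that of *Pkd1* and *Glis3* from 0.616 to 0.315, so both values depended on that mouse. The nearest genes depended on it too. Without it *Ptbp1* fell to rank 16 for *Prkcsh*, *Pum2* to rank 8 for *Pkd2* and *Dot1l* to rank 6 for *Pkd1*, and the nearest 3 genes were the same for *Dnajb11*, *Dzip1l*, *Bicc1* and *Glis3*, though in part in another order.

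Within groups, the partners *Pkd1* and *Pkd2*, and *Ganab* and *Prkcsh*, were tested for correlation across mice (6 relations, permutation tests with 100000 resamples, two-sided). *Pkd1* and *Pkd2* had Pearson's r of -0.406 in UNT (permutation p = 0.19, adjusted 0.228), 0.763 in PBS (p = 0.0111, adjusted 0.0668) and 0.501 in RGLS4326 (p = 0.108, adjusted 0.211). Spearman's rho was -0.105, 0.382 and 0.245 (permutation p = 0.749, 0.249 and 0.47, adjusted 0.749, 0.497 and 0.671). Without the 2 mice farthest from the median of *Pkd1*, r was 0.402, 0.293 and 0.0183. *Ganab* and *Prkcsh* had r of -0.315 in UNT (permutation p = 0.322, adjusted 0.322), 0.473 in PBS (p = 0.14, adjusted 0.211) and 0.689 in RGLS4326 (p = 0.0223, adjusted 0.067). Their rho was -0.189, 0.427 and 0.718 (permutation p = 0.559, 0.194 and 0.0163, adjusted 0.671, 0.497 and 0.0978), and r without the 2 mice farthest from the median of *Ganab* was -0.0994, 0.316 and 0.506. No relation passed the adjustment. Within library sets, after centring, r was -0.226, 0.709 and 0.455 for *Pkd1* and *Pkd2* and -0.378, 0.335 and 0.511 for *Ganab* and *Prkcsh*, in the order UNT, PBS and RGLS4326.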

How the data were processed

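Whole-kidney RNA of 34 mice was sequenced. The deposited files hold raw read counts per gene, one table per mouse, which the authors made with HTSeq 0.6.1; the submitters' processing notes also name FastQC 0.11.2, Trim Galore, STAR, SAMtools 1.1 and Picard 1.119, with GRCm38. The annotation and strand setting were not given in the sources used here. Lines that name no gene (reads in no gene, 4.94 to 12.0% per library) were kept out of library sizes. Depth was 17603122 to 54981992 reads in genes per library. No libraries were identical, and the replicates were separate mice.

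The members, gene lists and tests were chosen with earlier results of these data known. Counts of all genes were filtered (edgeR filterByExpr), scaled by TMM and fitted over the 3 groups with edgeR 4.0.16 quasi-likelihood tests (R 4.3.3, limma 3.58.1), with Benjamini-Hochberg adjustment over 15644 genes and a threshold of 0.05. SEs were taken on the log2 scale. Alternatives were other scalings, no filter, covariates, a replicate block, fits by library set, DESeq2 1.42.0 and each mouse left out, and 3 alternatives that left out the libraries that stood apart were chosen after seeing the data. Scripts were tested on simulated data. Named genes were all members, the 3 largest called changes in each direction of each related list, the 3 genes most like each member, *Tsc2* and *Pdk2*. Other tools were Python 3.11.15, numpy 2.4.6, pandas 2.3.3, scipy 1.17.1 and matplotlib 3.10.9. Gene models were from GENCODE M21, and microRNAs from RefSeq. *Pkd1l1* and *Trac* were not analysed here. Some genes of the lists are not reported here and were left out of the list counts.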

Additional observations from a re-analysis of the deposited data

How the results depend on the processing

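Across the 13 planned and 3 added alternatives, *Pkd2*, *Pkhd1*, *Bicc1* and *Glis3* kept their direction in PBS against UNT. In RGLS4326 against PBS, *Pkd1*, *Pkd2*, *Prkcsh*, *Sec63* and *Bicc1* did so. The number of members called fell from 7 to 3 in PBS against UNT and from 8 to 3 in RGLS4326 against UNT with library set 3 alone. Over all genes, 10153 and 8743 of 15676 were called there, against 12841 and 12157 of 15644 over all mice. In RGLS4326 against PBS the number of members called fell from 3 to 0 with library set 1 alone, library set 3 alone, the fraction of reads outside genes entered as a covariate, PBS 2, PBS 9 and PBS 11 left out, or RGLS4326 5, 6, 7 and 11 left out. Over all genes, 54, 0, 89, 366 and 332 were called in those settings, against 5280. As no gene at all was called in library set 3 alone, its 0 says nothing about the members. In the order of those settings, 2, 2, 1, 3 and 2 members had an unadjusted p under 0.05 in edgeR, and DESeq2 over all mice called 3. Fewer samples enter the fits by library set and without libraries, and the cause was otherwise not tested.

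In PBS against UNT the ER partners gave 8 called genes in library set 3 alone (from 14), the other cystic kidney genes 9 with the fraction of reads outside genes entered as a covariate and 7 in library set 3 alone (from 14), and the partners of *Bicc1*, *Dzip1l* and *Glis3* 7 on the housekeeping scale (from 4). Over all genes, 10153 of 15676 were called in library set 3 alone. With the covariate 10975 of 15644 were called, and on the housekeeping scale 13391, against 12841. In RGLS4326 against PBS the ER partners (7 called) gave 3 on the housekeeping scale, 4 with no filter, 3 with only the 2 groups in the fit, 2 with PBS 2 and PBS 11 left out, 0 under the same settings as the members, and 3 to 8 with a mouse left out. The other cystic kidney genes (5 called) gave 3 in library set 2 alone and 0 under those settings. The partners of *Bicc1*, *Dzip1l* and *Glis3* (3 called) gave 1 with PBS 2 and PBS 11 left out, 0 in library set 2 alone and 0 under those settings. Over all genes, 4356 were called in RGLS4326 against PBS on the housekeeping scale, 4943 with no filter and 4445 with only the 2 groups. With PBS 2 and PBS 11 left out 2836 were called, and in library set 2 alone 4065, against 5280.

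Directions that reversed in PBS against UNT were those of *Pkd1* (-0.12), *Prkcsh* (-0.42), *Sec63* (-0.46) and *Dnajb11* (-0.49) on the housekeeping scale, *Ganab* (0.082) and *Dzip1l* (0.045) on total counts, *Dnajb11* (-0.19), *Prkcsh* (-0.22) and *Dzip1l* (0.12) with the fraction of reads outside genes entered as a covariate, and *Sec63* (-0.13) in library set 3 alone. The covariate values carry the limit that PBS and UNT libraries did not overlap in that fraction. *Dnajb11* was also at -0.010 with RLE scaling, -0.020 with no filter, -0.21 and -0.024 in library sets 1 and 3 alone, -0.0079 with DESeq2, -1.69e-05 with PBS 2 and PBS 11 left out, -0.076 with PBS 2, PBS 9 and PBS 11 left out, and -0.040 to 0.082 with a mouse left out. In RGLS4326 against PBS, *Ganab* was at 0.075 on the housekeeping scale, 0.023 with the covariate, 0.039 in library set 3 alone, 0.0025 with PBS 2 and PBS 11 left out and 0.0089 with RGLS4326 5, 6, 7 and 11 left out, *Dzip1l* at -0.12 with the covariate, -0.13 in library set 1 alone and -0.10 with RGLS4326 5, 6, 7 and 11 left out, *Dnajb11* at 0.0075 on the housekeeping scale, *Pkhd1* at -0.013 in library set 1 alone and *Glis3* at -0.070 in library set 2 alone. In RGLS4326 against UNT, total counts gave 0.058 for *Ganab*, 0.23 for *Dnajb11*, 0.13 for *Prkcsh* and 0.15 for *Dzip1l*, the housekeeping scale -0.25 for *Sec63*, the covariate 0.0041 and library set 2 alone 0.038 for *Dzip1l*, and RGLS4326 5, 6, 7 and 11 left out 0.011 for *Dnajb11*. The correlation of *Ganab* and *Prkcsh* in UNT was 0.017 on total counts, and that of *Pkd1* and *Pkd2* in UNT 0.402 without the 2 mice farthest from the median.

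Groups share replicate numbers, but the numbers do not pair the mice: of 33 same-numbered pairs, 10 had a correlation over 0.1 (range -0.415 to 0.454), and 2 of 34 mice correlated best with their own number. With a replicate block, RGLS4326 against PBS gave 0.32 for *Pkd1*, 0.40 for *Pkd2* and -0.26 for *Prkcsh*, all called, with 5098 genes called in place of 5280. Of the members' calls in the 3 comparisons the block changed that of *Dzip1l* in RGLS4326 against UNT, which was called at -0.20, and the call of *Tsc2* in PBS against UNT was lost with it (-0.097, adjusted p = 0.108).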
